A study of Homo sapiens with 9 samples.

Results

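The metallothioneins studied here were MT1E, MT1F, MT1G, MT1M, MT1X and MT2A, with MTF1, the zinc-sensing transcription factor that switches them on. Members were chosen by gene symbol, as the locus whose name holds the symbol and, where several loci did, the one with the most counts. A locus was found for 6 of the 7 named genes, out of 43444 loci in the table. MT1M was not analysed here.

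Metallothioneins are very small, cysteine-rich proteins of the cytosol and nucleus that bind zinc, copper and cadmium through their thiol groups and also react with oxidants. Oxidants release zinc from them, and MTF1, which senses free zinc through its zinc fingers, then binds metal response elements (MREs) in the metallothionein promoters. Human metallothionein genes lie in a cluster on chromosome 16, and MT2A and several MT1 genes are the forms made in most tissues, lung epithelium included.

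The cells were A549, an established line from a human lung adenocarcinoma, grown in DMEM with fetal bovine serum. Group 1 received 2 µM RSL3, which inactivates the lipid peroxidase GPX4 and so triggers ferroptosis, together with 5 µM ferrostatin-1 (Fer-1), which traps lipid radicals. Group 2 received 2 µM RSL3 alone, and group 3 received the vehicle DMSO, each for 24 h. Total RNA was sequenced from 3 libraries per group. The labels do not say that these came from separate cultures, so each p-value measures only the spread between these samples. All groups are 1 line in bulk culture, so a change in the number of cells that express a gene and a change in its RNA per cell cannot be told apart.

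Named loci held 38945449 to 45620248 estimated counts per library. The epithelial keratin KRT8 averaged 652, 690 and 736 CPM (estimated counts scaled to library size and composition) with RSL3 plus Fer-1, RSL3 and DMSO, while CDH1, which encodes E-cadherin, stood at 0.198 CPM or less in each library. DMSO replicates 1 and 2 stood apart from the other 7 libraries in fibroblast markers. The 6 markers summed to 12.3 to 13.4 CPM with RSL3 plus Fer-1, to 13 to 18.7 CPM with RSL3, and to 101, 128 and 16.3 CPM in DMSO replicates 1, 2 and 3. COL1A2, a collagen gene, was listed at 32.8 and 41.3 CPM in DMSO replicates 1 and 2 and at 3.19 CPM or less elsewhere. The 6 blood cell markers summed to 556 to 560 CPM with RSL3 plus Fer-1, 542 to 598 CPM with RSL3 and 559 to 576 CPM with DMSO. Nearly all of it came from the locus that holds CD68, a lysosomal gene, at a mean of 552, 558 and 561 CPM. That locus also holds EIF4A1 and other genes, so neither its values nor this sum can be credited to CD68. The 4 endothelial markers with a locus summed to 3.62 to 5.76, 6.31 to 7.27 and 3.66 to 5.26 CPM in the same groups. Single markers did not share one order: LYZ (2.79, 6.38 and 4.3 CPM) and EGFL7 (3.09, 5.2 and 2.76 CPM) were highest with RSL3 like MT2A, PTPRC (1.57, 1.96 and 2.56 CPM) was highest with DMSO, and PECAM1 (1.4, 1.19 and 1.39 CPM) was lowest with RSL3. CD3E, VWF and CDH5 stayed at 0.506 CPM or less in each library. By edgeR, LYZ was called lower with RSL3 plus Fer-1 than with RSL3 (log2 change -1.19, adjusted p = 0.00446), but not by limma (adjusted p = 0.0919). EGFL7 was called higher with RSL3 than with DMSO by edgeR (0.91, adjusted p = 0.00745). That call was lost without DMSO replicate 2 (adjusted p = 0.0592), and the change was 0.85 without DMSO replicates 1 and 2. The part of these markers in the results was not tested. Fitted changes against DMSO are therefore given also without both of these libraries. That leaves 1 DMSO library, which is then assumed to vary like the other groups. Of 4 tested epithelial genes, edgeR called 2 lower with RSL3 than with DMSO, beside 7.46% of all tested loci. They were the locus shared by KRT7 and KRT86 (log2 change -0.13, adjusted p = 0.00313) and KRT8 (-0.09, adjusted p = 0.0442). These changes were -0.14 and -0.10 without DMSO replicates 1 and 2. The KRT8 call was lost without RSL3 replicate 3 (adjusted p = 0.25), among other alternatives. RSL3 plus Fer-1 against DMSO called 3 of the 4 lower, beside 2.66% of loci.

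The promoters are shown because metallothionein promoters are the textbook site of MTF1 binding. RefSeq promoter windows on GRCh38.p14, from 250 bases before to 50 bases after the start, were at hand for 3 of the 7 members, MT2A, MT1X and MTF1. The 250 bases before the start lie at chr16:56608334-56608583 for MT2A and at chr16:56682220-56682469 for MT1X, both on the plus strand. Capitals mark the MRE core, TGCACNC or TGCGCNC in either strand (N is any base), so that GNGTGCA and GNGCGCA are the same letters read from the minus strand.
MT2A: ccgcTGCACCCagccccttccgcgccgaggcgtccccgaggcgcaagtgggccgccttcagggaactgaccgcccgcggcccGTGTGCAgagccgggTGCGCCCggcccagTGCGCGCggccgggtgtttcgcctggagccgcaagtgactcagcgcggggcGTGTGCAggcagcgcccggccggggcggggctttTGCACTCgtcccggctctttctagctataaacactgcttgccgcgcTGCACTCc
MT1X: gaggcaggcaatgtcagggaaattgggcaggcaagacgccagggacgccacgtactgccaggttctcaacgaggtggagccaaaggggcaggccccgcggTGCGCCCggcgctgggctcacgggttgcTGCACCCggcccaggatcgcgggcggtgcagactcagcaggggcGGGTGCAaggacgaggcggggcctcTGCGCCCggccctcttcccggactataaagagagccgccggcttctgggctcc

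The MT2A window held 8 MRE core matches, of which 7 lie in the stretch printed and the other begins 31 bases past the start. The MT1X window held 4, all before the start, and the MTF1 window held 0. The window of SLC30A1, the zinc exporter gene that MTF1 also activates, held 2. Among metallothionein genes that are not members here, the MT1H window also held 8 and the MT1B window held 3. Of 35116 RefSeq promoter windows of the same length, 29.6% held at least 1 match, 8.6% at least 2, 0.601% at least 4 and 0.0199% at least 8. The antioxidant response element core, TGACNNNGC in either strand, occurred 1 time in the window of MT2A and 1 time in that of MT1X, and 13.3% of all windows had at least 1. The AP-1 site TGACTCA occurred 1 time in the MT2A window, 104 to 98 bases before the start, where it lies inside the antioxidant core match, and 4.95% of all windows had at least 1. No MRE match overlapped another match. These are letter matches and say nothing of whether a protein was bound.

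**Figure D1:**
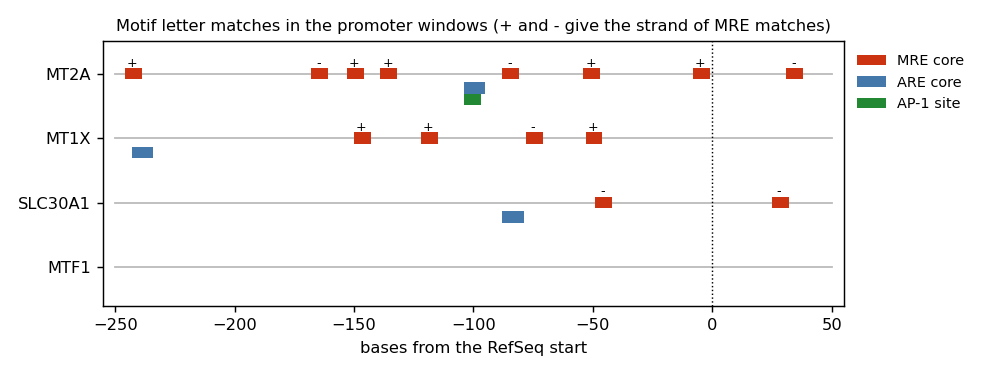
Positions of motif letter matches in the RefSeq promoter windows of MT2A, MT1X, SLC30A1 and MTF1, in bases from the start (dotted line); red, blue and green bars stand for MRE core, antioxidant response element core and AP-1 site matches. MT2A has 8 red bars, MT1X 4, SLC30A1 2 and MTF1 0.

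The 5 metallothionein loci found lie in a row on chromosome 16. MT2A is at chr16:56608584-56609497 and MT1E at chr16:56625475-56627112. MT1F follows at chr16:56657731-56660698 with coding and retained-intron transcripts, MT1G at chr16:56666730-56668065 on the minus strand, and MT1X at chr16:56682470-56688052. The MT1X locus carries the joint name MT1X;DPPA2P4, so its values are those of the gene and a pseudogene together. MTF1 is at chr1:37809574-37859592 on the minus strand. Metallothionein genes are close copies of one another, so reads shared between copies could be placed at the wrong one, and the values of a single copy are uncertain to that extent.

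Levels per length, in FPKM, set MT2A and MT1E far above the other members. FPKM divides by length, and the joint MT1X locus extends past MT1X itself, so its FPKM depends on the length used. In CPM the MT1X locus averaged 11.8, 17.7 and 12.5 with RSL3 plus Fer-1, RSL3 and DMSO, and MT1E averaged 29.7, 38 and 31.1. With RSL3 plus Fer-1, RSL3 and DMSO, MT2A averaged 40 ± 0.399, 56.2 ± 5.62 and 39 ± 2.52 FPKM, and MT1E averaged 23.4 ± 0.736, 30 ± 1.87 and 24.7 ± 2.76 FPKM (SD, n = 3 each). MT2A thereby ranked 413, 254 and 426 among the 17297 loci tested, and MT1E ranked 811, 601 and 777. MT1X averaged 3.74 ± 0.42, 5.64 ± 0.506 and 3.99 ± 0.619 FPKM and MTF1 3.46 ± 0.013, 3.54 ± 0.319 and 3.39 ± 0.145 FPKM. They were close to each other with RSL3 plus Fer-1 and with DMSO, while with RSL3 MT1X was above MTF1 in every library. MT1F was below 1 FPKM on average in every group, at 0.817 ± 0.194, 0.918 ± 0.248 and 0.296 ± 0.233 FPKM. The levels of MT2A, MT1E, MT1X and MT1F stood in that order in each of the 9 libraries, so neighbours among them differed beyond their spread, whereas those of MT1X and MTF1 did not in RSL3 plus Fer-1 or DMSO libraries. MT1G had 4 counts in RSL3 plus Fer-1 replicate 2 and 0 in the other 8 libraries, where 0 counts allow up to 3 counts, or 0.0658 to 0.077 CPM, for counting error only. Of the 14 other metallothionein genes and pseudogenes looked for, 4 had a locus, and none of these exceeded 15 counts in a library.

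RSL3 against DMSO asks how these genes respond to RSL3. MT2A, MT1E and MT1X rose, by 1.45-fold, 1.22-fold and 1.42-fold in CPM. MTF1 itself differed by 0.07 on the log2 scale, with a 95% interval from -0.09 to 0.23. MT1F had few counts and was higher by 3.07-fold.

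MT2A, the most abundant form in these cells, had 69.1, 59.4 and 57.4 CPM in the RSL3 libraries, against 40.4, 45.7 and 41.9 CPM in the DMSO libraries. Each RSL3 library was above each DMSO library, and RSL3 replicate 1 was the highest. MT2A rose by a log2 change of 0.54 (SE 0.0704, adjusted p = 2.3e-06 by edgeR, adjusted over the 17297 loci).

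MT1E, a further widely made form, had 40.4, 38.3 and 35.5 CPM in the RSL3 libraries, against 29.2, 35.1 and 29.1 CPM in the DMSO libraries. The groups did not overlap, but RSL3 replicate 3 and DMSO replicate 2 were close. MT1E rose by a log2 change of 0.29 (SE 0.0813, adjusted p = 0.0134). The call was lost when DMSO replicate 1, DMSO replicate 3 or RSL3 replicate 1 was left out, at an adjusted p of 0.0748, 0.0703 and 0.079.

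The MT1X locus had 19.1, 16 and 18.1 CPM in the RSL3 libraries, against 10.2, 13.6 and 13.6 CPM in the DMSO libraries. The groups did not overlap, and DMSO replicate 1 was the lowest DMSO library. MT1X rose by a log2 change of 0.51 (SE 0.128, adjusted p = 0.00575), and by 0.38 with DMSO replicate 1 left out, where the call was lost (adjusted p = 0.0579).

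MT1F did not reach the minimum of 1 FPKM in 3 libraries and was fitted with edgeR's wider filterByExpr filter instead, a choice made after its level was seen. It had 93, 99 and 56 counts in the RSL3 libraries, against 52, 27 and 7 counts in the DMSO libraries, which is 2.33, 2.45 and 1.44 CPM against 1.2, 0.668 and 0.163 CPM. The groups did not overlap, while the DMSO libraries spread widely among themselves. In the main filter, which did not hold MT1F, 15.8% of loci had all RSL3 libraries above all DMSO libraries. That share was not computed for the wider filter. MT1F rose by a log2 change of 1.61 in that fit (SE 0.463, adjusted p = 0.0287). The size rested on single DMSO libraries, at 2.32 without DMSO replicate 1 and 1.15 without DMSO replicate 3. The call was lost when DMSO replicate 2, DMSO replicate 3, RSL3 replicate 1 or RSL3 replicate 2 was left out (adjusted p = 0.112, 0.0721, 0.0952 and 0.105), and when only the RSL3 and DMSO libraries entered the fit (adjusted p = 0.0623).

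Of the 3 metallothioneins tested, 3 were called higher with RSL3, beside 9.04% of all tested loci called higher and 7.46% called lower (16.5% in either direction, and 24.9% of protein-coding loci). A complete separation of RSL3 above DMSO, seen in these 3, occurred in 15.8% of tested loci. In the wider filter that held MT1F, 6.07% of 26425 loci were called higher (10.7% in either direction). Without DMSO replicates 1 and 2, the change was 0.57 for MT2A (adjusted p = 0.000303), 0.39 for MT1E (adjusted p = 0.0246), 0.39 for MT1X (adjusted p = 0.212, no longer called) and 3.64 for MT1F (adjusted p = 0.00143), the last against the 7 counts of a single DMSO library. MT1E in DMSO replicate 2, which had the most fibroblast marker RNA, was the highest of its group, and MT2A likewise, but the part of that RNA in these values was not tested.

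**Figure D2:**
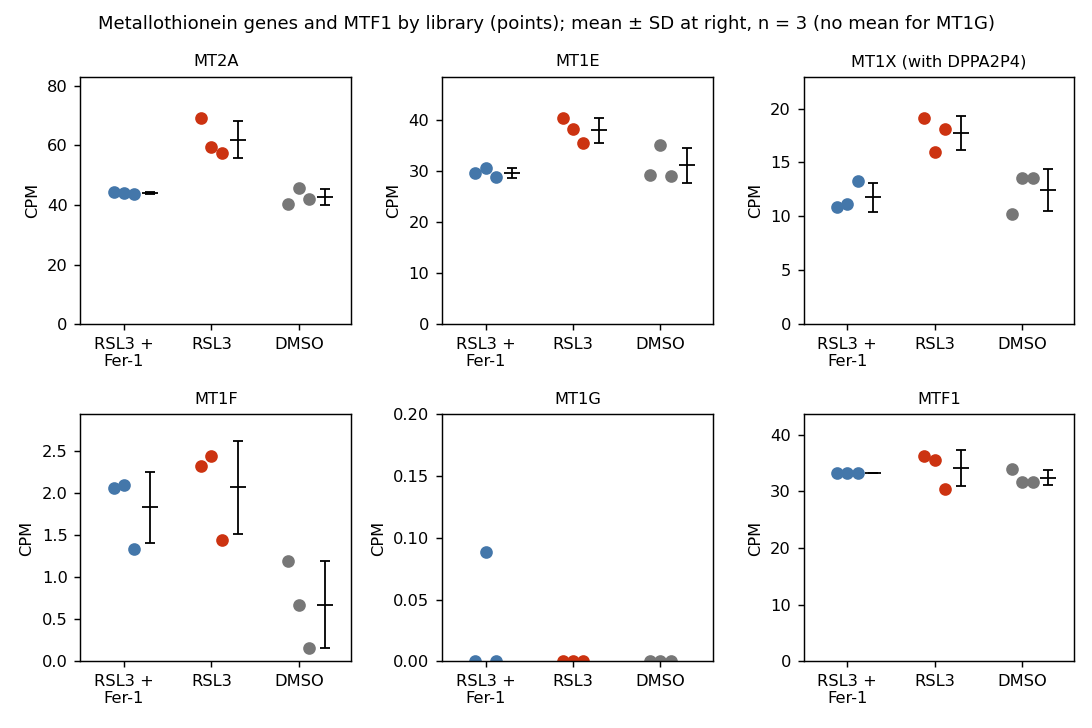
CPM of MT2A, MT1E, the MT1X locus, MT1F, MT1G and MTF1 in each library (points), with the mean and SD of 3 libraries beside them (none for MT1G); columns are RSL3 plus Fer-1, RSL3 and DMSO, each panel with its own axis from 0. In MT2A the RSL3 libraries lie at 57.4 CPM or above and all others at 45.7 CPM or below.

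The question of RSL3 plus Fer-1 against RSL3 is what adding Fer-1 changes in cells given RSL3. No group received Fer-1 alone, so an effect of Fer-1 itself and a relief of the RSL3 effect cannot be told apart. MT2A, MT1E and MT1X fell, to 0.712, 0.78 and 0.663 of their mean CPM with RSL3 alone. MT1F and MTF1 did not pass. These libraries of RSL3 alone also entered the comparison with DMSO, so the comparisons are not independent.

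MT2A had 44.5, 44 and 43.8 CPM in the RSL3 plus Fer-1 libraries, against 69.1, 59.4 and 57.4 CPM in the RSL3 libraries. The RSL3 plus Fer-1 libraries were nearly equal and all lower, with a log2 change of -0.49 (SE 0.0702, adjusted p = 2.26e-05). MT1E had 29.6, 30.6 and 28.8 CPM with RSL3 plus Fer-1, against 40.4, 38.3 and 35.5 CPM with RSL3, and the groups did not overlap. MT1E had a log2 change of -0.36 (SE 0.0813, adjusted p = 0.00511).

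The MT1X locus had 10.9, 11.1 and 13.3 CPM in the RSL3 plus Fer-1 libraries, against 19.1, 16 and 18.1 CPM in the RSL3 libraries. RSL3 plus Fer-1 replicate 3 was the highest of its group and still below every RSL3 library. MT1X had a log2 change of -0.59 (SE 0.128, adjusted p = 0.00343). All 3 tested metallothioneins were called lower, beside 3.99% of tested loci called lower and 2.47% called higher (6.46% in either direction), and 11.7% of tested loci separated completely in that direction. The 3 calls held without each of the 9 libraries in turn.

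MT1F had 90, 95 and 61 counts with RSL3 plus Fer-1, against 93, 99 and 56 counts with RSL3, and the groups overlapped in full. The log2 change was -0.18, with a 95% interval from -1.09 to 0.74 (adjusted p = 0.931, where 3.71% of the 26425 loci were called), so a fall of the size seen in MT2A lies inside the interval. Whether MT1F differs in this from MT2A was put to an exact permutation test of the ratio of their CPM. That ratio averaged 0.0416 ± 0.00956 with RSL3 plus Fer-1 and 0.0334 ± 0.00806 with RSL3 (SD, n = 3 each; exact permutation p = 0.3, two-sided, adjusted p = 0.45 over 12 such tests). The smallest p that 3 against 3 libraries allow is 0.1.

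RSL3 plus Fer-1 against DMSO asks what is left of the response when both agents are present. MT2A differed by 0.05 on the log2 scale (95% interval -0.10 to 0.19, adjusted p = 0.819), MT1E by -0.07 (-0.24 to 0.10, adjusted p = 0.75) and MT1X by -0.08 (-0.35 to 0.18, adjusted p = 0.822). In each of the 3 the libraries of the groups overlapped. None of the 3 was called, and 0 of 3 had an unadjusted p under 0.05 in edgeR, DESeq2 or limma, beside 6.69% of tested loci called in either direction (4.03% higher and 2.66% lower). MT1E changed sign, to 0.03, without DMSO replicates 1 and 2, while MT2A and MT1X differed by 0.08 and -0.21.

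MT1F had 90, 95 and 61 counts with RSL3 plus Fer-1, against 52, 27 and 7 counts with DMSO. Every RSL3 plus Fer-1 library was above every DMSO library. That occurred in 12.2% of the 17297 loci of the main filter, which did not hold MT1F. The share in the wider filter was not computed. MT1F was not called, with a log2 change of 1.44 (95% interval 0.47 to 2.40, adjusted p = 0.102) in a fit that called 4.1% of loci. DESeq2 called it (adjusted p = 0.0339), as did edgeR without DMSO replicate 1 (2.14, adjusted p = 0.0165) and without DMSO replicates 1 and 2 (3.47, adjusted p = 0.00583). The change was 0.97 without DMSO replicate 3 (adjusted p = 0.235), and 1.35 and 1.33 without RSL3 plus Fer-1 replicate 1 or 2 (adjusted p = 0.243 and 0.28), uncalled in each. In CPM relative to MT2A, MT1F averaged 0.0416 ± 0.00956 with RSL3 plus Fer-1 and 0.016 ± 0.0129 with DMSO (exact permutation p = 0.1, two-sided, the smallest possible, adjusted p = 0.343 over the 12 tests).

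**Figure D3:**
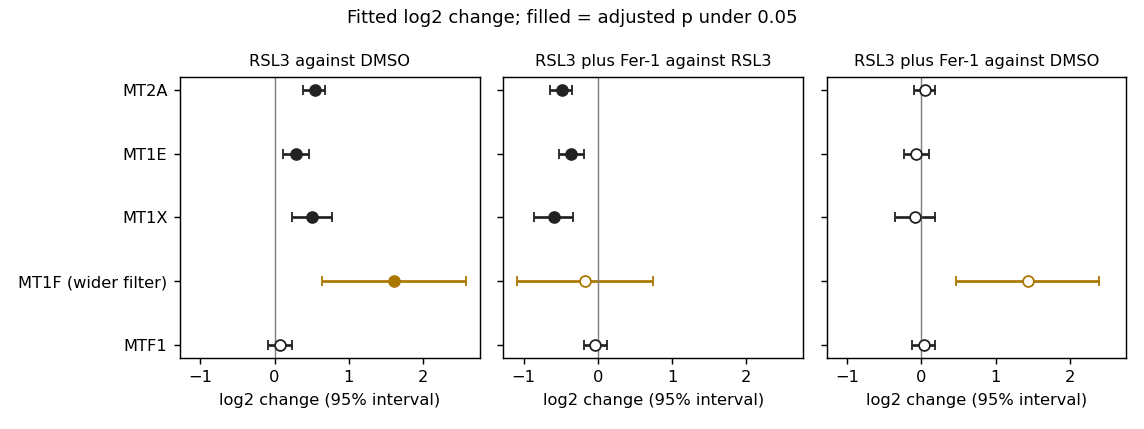
Fitted log2 change (dot) and 95% interval (bar) of MT2A, MT1E, MT1X, MT1F and MTF1 in the 3 comparisons; filled dots have an adjusted p under 0.05, and MT1F comes from the fit with the wider filter. MT2A, MT1E and MT1X lie right of 0 for RSL3 against DMSO, left of 0 for RSL3 plus Fer-1 against RSL3, and with intervals that include 0 for RSL3 plus Fer-1 against DMSO.

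The metallothionein FPKM summed over genes was 68.2, 68.6 and 67.1 in the RSL3 plus Fer-1 libraries, 101, 90.2 and 86.6 in the RSL3 libraries, and 64, 74.4 and 65.6 in the DMSO libraries. The RSL3 libraries were above all others, and the RSL3 plus Fer-1 libraries lay inside the range of DMSO. MT2A took 58.9 ± 0.542%, 60.6 ± 1.02% and 57.4 ± 1.03% of that sum with RSL3 plus Fer-1, RSL3 and DMSO (SD, n = 3 each), and MT1E took 34.4 ± 0.703%, 32.4 ± 1.06% and 36.3 ± 1.23%. The MT1X locus took 5.5 ± 0.683%, 6.1 ± 0.518% and 5.86 ± 0.752%, and MT1F took 1.2 ± 0.273%, 0.985 ± 0.239% and 0.441 ± 0.368%. These shares of FPKM, that of MT1X above all, depend on the length used for the joint MT1X locus.

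The balance of the leading pair, as the CPM of MT2A over that of MT1E, was 1.71, 1.55 and 1.62 in the RSL3 libraries, against 1.38, 1.3 and 1.44 in the DMSO libraries, with no overlap (exact permutation p = 0.1, two-sided, adjusted p = 0.343 over 12 tests). With RSL3 plus Fer-1 it was 1.5, 1.44 and 1.52, below each RSL3 library (exact permutation p = 0.1, adjusted p = 0.343). A p of 0.1 is the smallest these groups allow, so neither difference could pass the threshold. MT2A over MT1X averaged 3.5 ± 0.286 with RSL3 and 3.47 ± 0.449 with DMSO (SD, n = 3 each; exact permutation p = 0.9).

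**Figure D4:**
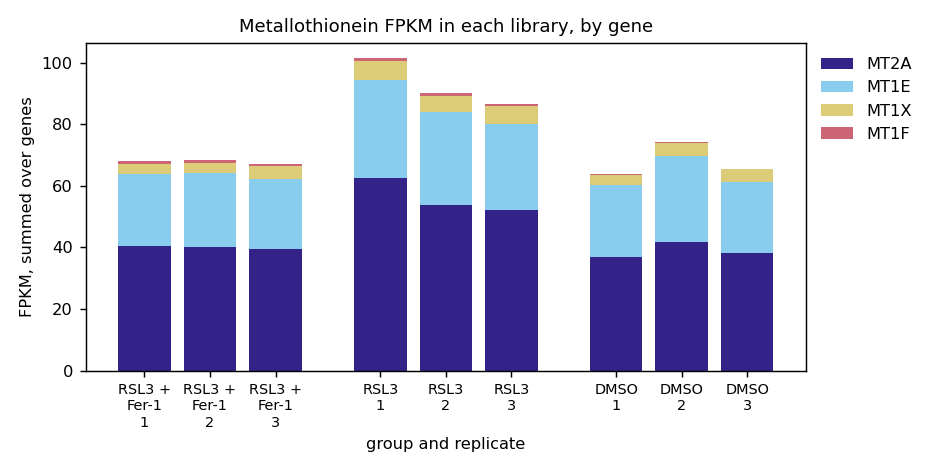
FPKM of MT2A, MT1E, the MT1X locus and MT1F stacked for each of the 9 libraries, by group and replicate. The RSL3 bars reach 86.6 to 101 FPKM, the RSL3 plus Fer-1 bars 67.1 to 68.6 and the DMSO bars 64 to 74.4.

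MTF1, the activator, had 33.3, 33.3 and 33.3 CPM with RSL3 plus Fer-1, 36.3, 35.5 and 30.5 CPM with RSL3, and 34, 31.6 and 31.7 CPM with DMSO. The RSL3 libraries spanned the other groups. MTF1 was called in none of the 3 comparisons (adjusted p = 0.62 for RSL3 against DMSO, 0.883 for RSL3 plus Fer-1 against RSL3 and 0.883 for RSL3 plus Fer-1 against DMSO), nor against DMSO without DMSO replicates 1 and 2 (0.11 with RSL3 and 0.07 with RSL3 plus Fer-1). A second, short MTF1 locus at chr1:37850821-37851599 held 39, 92 and 16 counts with RSL3 plus Fer-1, 25, 22 and 19 counts with RSL3, and 22, 16 and 16 counts with DMSO, and it was not used. MTF1 activity is set largely by zinc binding and by movement into the nucleus, which messenger levels do not record.

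SLC30A1 encodes ZnT1, the zinc exporter of the plasma membrane, which MTF1 switches on alongside the metallothioneins. It had 235, 225 and 234 CPM with RSL3 plus Fer-1, 235, 230 and 225 CPM with RSL3, and 212, 238 and 213 CPM with DMSO. The 3 groups overlapped. Its log2 change was 0.06 for RSL3 against DMSO (95% interval -0.03 to 0.14, adjusted p = 0.425) and 0.01 for RSL3 plus Fer-1 against RSL3 (-0.08 to 0.10, adjusted p = 0.954). The interval for RSL3 against DMSO lies below those of MT2A (0.39 to 0.68) and MT1X (0.24 to 0.77) but overlaps that of MT1E (0.12 to 0.46). SLC30A1 differed from DMSO by 0.12 with RSL3 when DMSO replicates 1 and 2 were left out (adjusted p = 0.218). Of the 6 zinc exporters and vesicular zinc transporters tested, 0 were called in any comparison, with a median change of 0.01 for RSL3 against DMSO, where all tested loci had a median of -0.01.

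Among 10 tested zinc importers, which carry zinc into the cytosol, RSL3 against DMSO called 1 lower and 1 higher, close to the 16.5% background. SLC39A10 (ZIP10), which MTF1 represses in mouse cells, had 185, 182 and 194 CPM with RSL3, against 286, 307 and 274 CPM with DMSO. All RSL3 libraries were lower, with a log2 change of -0.63 (SE 0.0436, adjusted p = 3.51e-11), or -0.54 without DMSO replicates 1 and 2 (adjusted p = 2.72e-07). The RSL3 plus Fer-1 libraries had 208, 208 and 225 CPM, above each RSL3 library and below each DMSO library. It was higher by 0.19 than with RSL3 (SE 0.0436, adjusted p = 0.00476), a call lost when RSL3 plus Fer-1 replicate 3 was left out (adjusted p = 0.0609) and with limma (adjusted p = 0.0896), and lower by 0.43 than with DMSO (log2 change -0.43, adjusted p = 8.91e-08; -0.35 without DMSO replicates 1 and 2, adjusted p = 0.000437). SLC39A6 (ZIP6), the closest relative of ZIP10, was higher by 0.12 with RSL3 than with DMSO (adjusted p = 0.0423). Leaving out DMSO replicate 2 or 3, any 1 RSL3 library or RSL3 plus Fer-1 replicate 1 undid the call (largest adjusted p 0.239). Limma (adjusted p = 0.116), each other filter and a fit without scaling factors (adjusted p = 0.0855) also undid it. Without DMSO replicates 1 and 2 the change of SLC39A6 was 0.22.

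In a list of 6 tested MTF1 targets other than metallothioneins, which includes SLC30A1 and SLC39A10, 0 were higher and 2 lower with RSL3 than with DMSO, with a median of 0.02, beside 9.04% of all tested loci called higher and 7.46% lower. The other lower gene was SELENOW, a small selenoprotein, which averaged 30.5 ± 1.18 CPM with RSL3 and 42.2 ± 4.29 CPM with DMSO (SD, n = 3 each; log2 change -0.47, adjusted p = 7.04e-05). Without DMSO replicates 1 and 2 its change was -0.28 and not called (adjusted p = 0.11). Between RSL3 plus Fer-1 and RSL3, 1 of the 6, SLC39A10, was higher and 0 were lower, beside 2.47% and 3.99% of all tested loci.

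Of 8 other factors known to act on metallothionein promoters, RSL3 against DMSO called 1 higher and 2 lower, beside 9.04% and 7.46% of all tested loci. NFE2L2, which encodes the oxidant-sensing factor NRF2, averaged 250 ± 9.12 CPM with RSL3 and 295 ± 5.49 CPM with DMSO at a locus it shares with other names (log2 change -0.24, SE 0.0362, adjusted p = 1.7e-05; -0.26 without DMSO replicates 1 and 2, adjusted p = 0.00138). It differed by 0.02 between RSL3 plus Fer-1 and RSL3 (adjusted p = 0.866), and RSL3 plus Fer-1 was lower than DMSO by -0.22 on the log2 scale (adjusted p = 0.000144; -0.25 without DMSO replicates 1 and 2, adjusted p = 0.00694). Messenger at the NFE2L2 locus was thus lower in both groups that received RSL3 than in DMSO. The NRF2 protein and its activity were not measured. The locus named HIF1A;AL137129;SNAPC1, which holds the hypoxia factor HIF1A, averaged 381 ± 8.21 CPM with RSL3 plus Fer-1, 456 ± 25.7 CPM with RSL3 and 379 ± 4.36 CPM with DMSO. It rose by 0.27 with RSL3 against DMSO (adjusted p = 4.38e-06; 0.29 without DMSO replicates 1 and 2) and changed by -0.26 with RSL3 plus Fer-1 against RSL3 (adjusted p = 1.96e-05). NR3C1, the glucocorticoid receptor, changed by -0.11 with RSL3 against DMSO (adjusted p = 0.0431), which was lost on leaving out DMSO replicate 2 or 3, RSL3 replicate 1 or 2, or RSL3 plus Fer-1 replicate 2 or 3 (largest adjusted p 0.259), and without DMSO replicates 1 and 2 (-0.08, adjusted p = 0.434). STAT3, which mediates interleukin-6 induction of metallothioneins, changed by -0.16 with RSL3 plus Fer-1 against RSL3 (adjusted p = 0.0237), which was lost on leaving out replicate 1 or 2 of either group (largest adjusted p 0.154).

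Cadmium and oxidants induce metallothioneins and a shared set of stress genes. Among them, HSPA1B is at a locus it shares with other names. Of 11 such genes tested, 9 were higher and 0 lower with RSL3 than with DMSO, with a median log2 change of 0.59 against -0.01 over all tested loci, of which 9.04% were called higher and 7.46% lower. Among those called, HSPA1B and DNAJB1 lost their calls without DMSO replicates 1 and 2, where they changed by 0.12 and 0.15. SLC7A11, the cystine transporter, rose by 1.24 in log2 units (adjusted p = 7e-16), HMOX1, which breaks down haem, by 0.95 (adjusted p = 1.79e-05) and the autophagy receptor SQSTM1 by 0.84 (adjusted p = 1.36e-16). These changes were 1.19, 1.36 and 0.87 without DMSO replicates 1 and 2, all called. Between RSL3 plus Fer-1 and RSL3, 5 of 11 were lower and 0 higher, beside 3.99% and 2.47% of all tested loci, led by HMOX1 at -0.59 (adjusted p = 0.00695, 0.06 without RSL3 replicate 1). SLC7A11 and SQSTM1 changed by -0.23 each in that comparison (adjusted p = 0.000337 and 1.19e-05). RSL3 plus Fer-1 against DMSO called 8 of 11 higher and 0 lower, beside 4.03% and 2.66% of all tested loci, with SLC7A11 at 1.01 and SQSTM1 at 0.61. Without DMSO replicates 1 and 2, SLC7A11 was at 0.96 and SQSTM1 at 0.64. In that fit HSPA1B and DNAJB1, at 0.12 and 0.18, lost their calls, while HMOX1 moved from 0.36 to 0.77.

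Glucocorticoids induce MT2A and MT1X in human cells. Of 8 tested genes known as glucocorticoid receptor targets, 3 rose and 0 fell with RSL3 against DMSO, with a median of 0.01, beside 9.04% of all tested loci called higher and 7.46% lower. They were ERRFI1, a feedback inhibitor of the EGF receptor (1.22, adjusted p = 3.72e-09), the phosphatase DUSP1 (0.89, adjusted p = 1.46e-10) and the kinase SGK1 (0.51, adjusted p = 5.13e-08), at 1.34, 0.90 and 0.49 without DMSO replicates 1 and 2, all called. With RSL3 plus Fer-1 against RSL3, ERRFI1 fell by 0.92 in log2 units (adjusted p = 1.12e-06), and DUSP1 fell by 0.35 (adjusted p = 0.000229). SGK1 differed by 0.05 there (adjusted p = 0.702). With RSL3 plus Fer-1 against DMSO, DUSP1 was higher by 0.54 (adjusted p = 1.02e-06) and SGK1 by 0.56 (adjusted p = 3.56e-08), while ERRFI1, at 0.30, was not called (adjusted p = 0.113). Without DMSO replicates 1 and 2 these changes were 0.54, 0.54 and 0.42. All 3 of these genes also answer to other signals, such as growth factors.

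Metallothioneins also hold copper. Of 9 copper handling genes tested, 2 rose and 0 fell with RSL3 against DMSO, with a median of -0.05, beside 9.04% of all tested loci called higher and 7.46% lower. These were the superoxide dismutase gene SOD1 (0.16, adjusted p = 0.0292), called no more on leaving out DMSO replicate 1, RSL3 replicate 1 or RSL3 replicate 3 (largest adjusted p 0.192), and a locus that joins the copper pump ATP7A with PGK1, a glycolysis gene (0.27, adjusted p = 2.16e-07). Without DMSO replicates 1 and 2, SOD1 was at 0.12 and not called (adjusted p = 0.397) and the ATP7A locus at 0.27 and called (adjusted p = 0.000126). Of 11 tested genes that flank the metallothionein cluster on chromosome 16, 0 were higher and 1 lower with RSL3 than with DMSO, with a median of -0.02, beside the same 9.04% and 7.46%. That was NUDT21, a factor of messenger 3′ end processing (-0.15, adjusted p = 0.0274), called no more on leaving out DMSO replicate 1 or 3 or RSL3 replicate 3 (largest adjusted p 0.15). Without DMSO replicates 1 and 2 NUDT21 was not called (-0.18, adjusted p = 0.0998). With RSL3 plus Fer-1 against RSL3, 1 of the 11 was lower, beside 3.99% of all tested loci: HERPUD1, a gene of endoplasmic reticulum stress (-0.30, adjusted p = 0.00681).

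**Figure D5:**
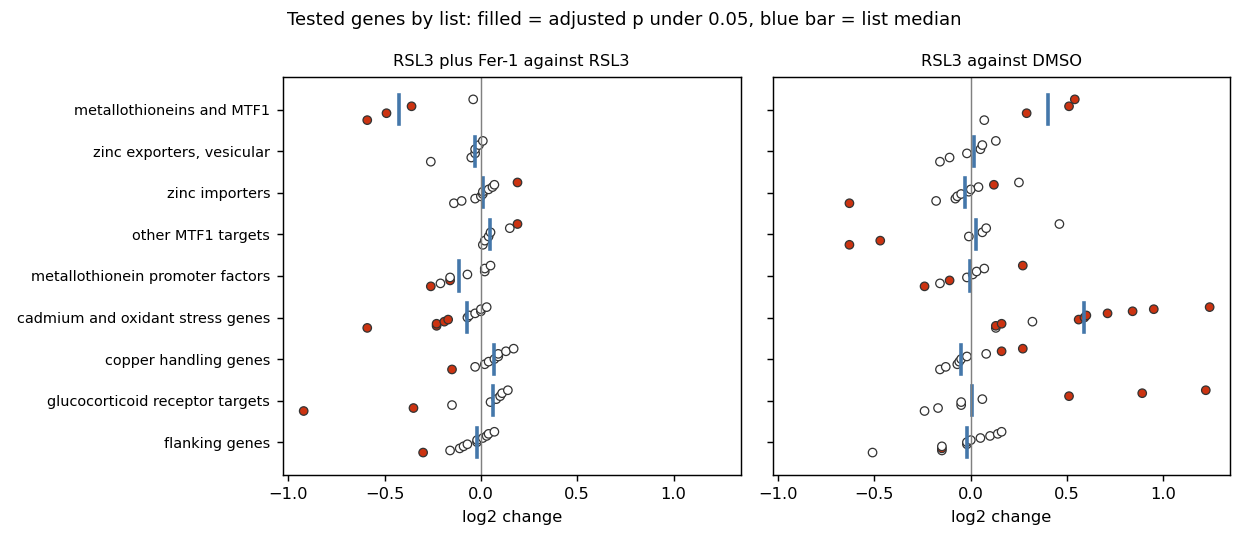
Log2 change of each tested gene in 9 gene lists (dots, filled where the adjusted p is under 0.05), with the list median as a blue bar, for RSL3 plus Fer-1 against RSL3 (left) and RSL3 against DMSO (right). For RSL3 against DMSO, the median of the 3 metallothioneins with MTF1, 0.40, and that of the stress genes, 0.59, stand right of the zinc transporter medians, 0.01 and -0.03.

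Among 8125 loci with a single gene name and a mean of at least 10 CPM, the patterns most like that of MT2A over the 9 libraries were those of JUN, TUBB6, AP001970 and F3, with Pearson correlations of log2 CPM of 0.982, 0.979, 0.976 and 0.975. These are descriptions over libraries of 3 groups, with no test. JUN, an AP-1 subunit, averaged 12.7 ± 1.06 CPM with RSL3 plus Fer-1, 23.9 ± 5.21 CPM with RSL3 and 11.4 ± 0.501 CPM with DMSO (SD, n = 3 each). F3, the tissue factor of blood coagulation, averaged 79.4 ± 4.55, 136 ± 9.94 and 82.2 ± 4.58 CPM in the same groups. MT1E had a correlation of 0.925 with MT2A, with 81 loci above it, MT1X one of 0.884, with 212 above it, and MTF1 one of 0.431, with 2135 above it.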

How the data were processed

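RNA from 9 A549 libraries was sequenced by the submitters, with GRCh38 as the build and with cutadapt 1.9 and FastQC among the tools, per the submitters' processing notes. No source used here names the aligner or the counting program. The deposited table holds a count and an FPKM per locus and library, per the file headers. The deposited counts, called estimated counts here, are whole numbers with totals that differ between libraries. Whether they are read tallies or estimates from coverage is not settled. The deposited FPKM values were put on a per-length, per-depth scale by the authors. Strandedness of the libraries is not stated in the labels.

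Loci without a gene name (0.48 to 0.546% of counts) were left out. Loci with FPKM of at least 1 in at least 3 libraries (17297) were tested with edgeR 4.0.16 in R 4.3.3: TMM factors, one robust quasi-likelihood model over 3 groups and 9 libraries, and Benjamini-Hochberg adjustment over all tested loci with a threshold of 0.05. CPM uses library totals and TMM factors. SE and 95% intervals come from the F statistic. DESeq2 1.42.0 and limma 3.58.1 on log2(FPKM + 1) or log2(FPKM + 0.1) were alternatives. A similar edgeR fit, with library totals taken from the tested loci only, was run on simulated counts. The main fit takes totals from all named loci and was not itself run on simulated data.

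All members were named. From each gene list, up to 3 called genes with the largest change in RSL3 against DMSO, then in RSL3 plus Fer-1 against RSL3, were named, together with SLC30A1, NFE2L2 and the 5 loci most like MT2A, of which 1 is not reported here. The members and lists were chosen with earlier results of these data known.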

Additional observations from a re-analysis of the deposited data

How the results depend on the processing

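Across 20 alternatives in each comparison that changed scaling, filter, tool or libraries, plus a fit without DMSO replicates 1 and 2 that was chosen after seeing the data, the calls and directions of MT2A, MT1E, MT1X and MTF1 were kept in 244 of 252 values, weakened in 5 and reversed in 3. All 5 weakened values are in RSL3 against DMSO and are given above. Leaving out 1 library at a time called 1 to 3 of the metallothioneins in RSL3 against DMSO (1 without DMSO replicate 1). Around 0, such values ran from -0.11 to 0.02 for MT1E in RSL3 plus Fer-1 against DMSO (0.03 without DMSO replicates 1 and 2), and, in RSL3 plus Fer-1 against RSL3, from -0.11 to 0.01 for MTF1, -0.38 to 0.01 for MT1F, -0.01 to 0.04 for NFE2L2 and -0.01 to 0.03 for SLC30A1. Of 51 such values of MT1F, 41 kept both direction and side of the threshold, and of 987 of the other named genes, 873 did. In RSL3 against DMSO, the calls of SLC39A6 and NR3C1 were also lost under each other filter and with limma. Those of SOD1 and NUDT21 were lost with limma. In RSL3 plus Fer-1 against RSL3, STAT3 lost its call under each other filter and with limma, and HMOX1 with limma.

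Over all loci, RSL3 against DMSO called 2854 loci, and 2156 to 2805 without 1 library and 1403 without DMSO replicates 1 and 2. RSL3 plus Fer-1 against RSL3 called 1117, with 747 to 1117 without 1 library, 563 with limma on log2(FPKM + 1) and 535 on log2(FPKM + 0.1). RSL3 plus Fer-1 against DMSO called 1157, with 711 to 1211 without 1 library, 505 and 511 with the same limma fits and 443 without DMSO replicates 1 and 2. The fit without DMSO replicates 1 and 2 has fewer libraries by construction, and the cause of the limma counts was not tested.

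Deviations from the group mean correlated from -0.0497 to 0.0657 between same-numbered libraries of different groups, and from -0.0621 to 0.039 between different-numbered ones. These values do not settle whether libraries were paired by number, and the main fit left the number out. With the replicate number as a block, MT2A changed by 0.54 and MT1X by 0.52 in RSL3 against DMSO, 2803, 1068 and 1141 loci were called in the order above, and MT1F passed in RSL3 plus Fer-1 against DMSO (1.62, adjusted p = 0.0278). Depth limits MT1F and MT1G, and changes near 0 cannot be read as equality.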

Other observations

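A long noncoding locus next to the 3′ end of MT2A, AC026461, was looked at after its values were seen. It held 11, 0 and 0 counts with RSL3 plus Fer-1, 20, 22 and 22 counts with RSL3, and 12, 6 and 0 counts with DMSO. The RSL3 libraries were above all others, and the share of loci in the wider filter that separate in this way was not computed. In edgeR's test with the wider filter it was called in none of the 3 comparisons (adjusted p = 0.395 for RSL3 against DMSO, 0.333 for RSL3 plus Fer-1 against RSL3 and 0.888 for RSL3 plus Fer-1 against DMSO). It lies on the strand opposite to MT2A, and without strand information its reads and those of MT2A cannot be told apart at their border.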
